A study of Rattus norvegicus with 30 samples.

Results

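The genes examined were 4 Toll-like receptors (Tlr2, Tlr3, Tlr4 and Tlr7), the adaptor Myd88, the lipopolysaccharide carrier Lbp, the calprotectin subunits S100a8 and S100a9, the siderophore binder Lcn2 and the inducible nitric oxide synthase Nos2. These 10 genes were chosen by name among the 35287 gene names of the array, and 12 of its 41012 non-control probes carried those names. S100a8 had 3 probes and each of the other genes had 1. The study followed adult male Sprague-Dawley rats of 180 to 220 g after a 1 cm segment of the left sciatic nerve had been cut out. The proximal sciatic nerve (SN, a 0.5 cm piece) and the lumbar dorsal root ganglia (DRG, levels 4 to 6), which house the cell bodies of the sensory axons, were taken at 0, 1, 4, 7 and 14 d, with 3 arrays for each tissue and day and 30 arrays in all. The 0 d arrays were the reference of each tissue, and whether those rats had been opened was not stated. The labels gave 5 groups of 6 rats but not which rats each array held or whether RNA was pooled, so SN and DRG of a day may share animals and the p-values measure the spread between these arrays.

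Toll-like receptors recognize microbial products and molecules released from damaged cells. Tlr2 and Tlr4 act at the cell surface and Tlr3 and Tlr7 in endosomes, where they bind double-stranded and single-stranded RNA. All except Tlr3 signal through Myd88 to the transcription factor NF-kB. Lbp hands lipopolysaccharide to Cd14 and then to Tlr4. S100a8 and S100a9 form calprotectin, which is abundant in the cytosol of neutrophils and is a ligand of Tlr4 once released. Lcn2 withholds iron from bacteria, and Nos2 makes nitric oxide in activated phagocytes. In injured nerve these genes are studied as part of the inflammation that accompanies the breakdown and removal of myelin.

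The probes, each a 60-base oligonucleotide, are shown for the genes on which the results below turn most. Positions are those of the files in the rn4 build of the rat genome. S100a8 was read by A_44_P1055780 (chr2:182962328-182962387, plus strand) and S100a9 by A_44_P353618 (chr2:182987647-182987706, minus strand), 25.3 kb away. A further S100a8 probe, A_44_P674708 (chr2:182962043-182962102), was designed on the minus strand and thus runs against the first. The Tlr7 probe A_44_P281510 lay at chrX:47356167-47356226 on the plus strand. The Nos2 probe A_44_P545686 spanned 2040 bp (chr10:65070211-65072250, plus strand) and was printed in 10 spots of each array.
S100a8, A_44_P1055780: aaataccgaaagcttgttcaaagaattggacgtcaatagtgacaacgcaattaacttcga
S100a8, A_44_P674708: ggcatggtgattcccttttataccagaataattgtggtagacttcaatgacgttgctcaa
S100a9, A_44_P353618: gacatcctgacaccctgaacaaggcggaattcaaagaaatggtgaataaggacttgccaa
Tlr7, A_44_P281510: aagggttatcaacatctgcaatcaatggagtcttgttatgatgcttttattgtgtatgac
Nos2, A_44_P545686: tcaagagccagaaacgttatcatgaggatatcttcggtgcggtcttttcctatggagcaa
The other probes lay at chr2:175608160-175608217 (Tlr2), chr16:50126045-50126104 (Tlr3), chr5:83577410-83577469 (Tlr4), chr8:124301373-124301432 (Myd88), chr3:149043196-149043255 (Lbp) and chr3:11511592-11511651 (Lcn2). An annotation of rn4 was not used here, so exons and introns are not given.

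RefSeq promoter windows of the GRCr8 build, from 250 bases before to 50 after each start, were held for 7 of the 10 genes, all but Lbp, S100a8 and Nos2. They were searched on both strands for the NF-kB consensus of 10 bases. It occurred in the windows of Tlr2 and Lcn2, 2 of the 7, and in 7.51% of all 33469 windows. The 250 bases before the start of these genes are shown, with the matches in capitals, because Tlr2 and Lcn2 went in opposite directions in SN. In Tlr2 (chr2:171504558-171504807, minus strand) there were 3 matches, 205 and 206 bases before the start, which overlap, and 42 bases before it. In Lcn2 (chr3:36081781-36082030, minus strand) the match lay 242 bases before the start, on the opposite strand. A match is a likeness of letters and not a measured binding site.
Tlr2: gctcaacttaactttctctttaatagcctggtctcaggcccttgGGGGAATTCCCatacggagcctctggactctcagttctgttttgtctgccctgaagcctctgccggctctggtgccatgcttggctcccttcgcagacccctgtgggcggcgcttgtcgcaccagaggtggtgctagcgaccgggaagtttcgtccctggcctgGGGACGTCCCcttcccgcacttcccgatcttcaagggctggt
Lcn2: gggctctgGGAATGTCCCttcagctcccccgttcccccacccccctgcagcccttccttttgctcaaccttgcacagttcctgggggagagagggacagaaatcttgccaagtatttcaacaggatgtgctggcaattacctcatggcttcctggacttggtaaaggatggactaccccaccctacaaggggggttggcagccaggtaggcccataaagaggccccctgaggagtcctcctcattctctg

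The signal of a probe is given as log2 of the processed signal minus the 75th percentile of its array, so that 0 is the 75th percentile and a difference of 1 is 2-fold. A gene was called changed when the limma test gave a Benjamini-Hochberg adjusted p under 0.05 over all probes tested and the fold exceeded 2. The number of probes well above background on an array ran from 26941 (DRG 0 d replicate 2) to 35573. All 10 genes passed the filter on dim probes in both tissues, Nos2 in SN through 1 d and 7 d and in DRG through 14 d alone. The 0 d arrays were scanned on a scan day of their own and shared no slide with another day, so a difference from 0 d within a tissue cannot be told apart from slide or scan. The tissues differed as labelled: all 12 sensory neuron markers were lower in SN than in DRG at 0 d, with a median log2 difference of -7.38, and all 6 endothelium markers were higher. In these bulk tissues fewer cells of a type and less RNA per cell cannot be told apart.

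In SN, 6 of the 10 genes were called at 1 d against 0 d, and 22.1% of all probes tested were called in that comparison. Lbp, Nos2, S100a8, S100a9, Tlr2 and Tlr7 rose and none fell. At 4 d, 5 were called against a background of 22.7%, and at 7 d, 5 against 24.9%. At both days Lbp, Nos2, Tlr2 and Tlr7 were higher and Lcn2 was lower. At 14 d, 6 were called against 19.8%, with S100a8 in addition to the genes of 7 d. Nos2 stands apart in these counts, since it passed the filter through days on which it was high and its 0 d signal was not well above background, which left bounds under 2-fold. The other genes named were well above background on all arrays. By direction, 18.6%, 15.9%, 18.1% and 14.3% of all probes tested in SN were called higher from 1 d to 14 d, and 3.43%, 6.78%, 6.81% and 5.46% lower. The median log2 change of the 10 genes in SN was 1.62, 0.93, 0.91 and 0.99 at 1, 4, 7 and 14 d, beside 0.11, 0.15, 0.15 and 0.16 over all probes tested.

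In DRG few of the genes passed the test. At 1 d none was called, beside 7.6% of all probes, and 1 gene had an unadjusted limma p under 0.05. The t-test of the study's methods also called none. At 4 d Tlr2 was called, 1 of 10 beside 6.54%. At 7 d Tlr2 and Tlr7 were called, 2 of 10 beside 6.91%. At 14 d S100a8 was called, 1 of 10 beside 13.5%. Of all probes tested in DRG, 7.43%, 6.04%, 6.58% and 13% were called higher from 1 d to 14 d. The median log2 change of the 10 genes was 0.12, 0.21, 0.59 and 0.91 at 1, 4, 7 and 14 d, beside 0.09, 0.14, 0.08 and 0.13 over all probes.

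**Figure D1:**
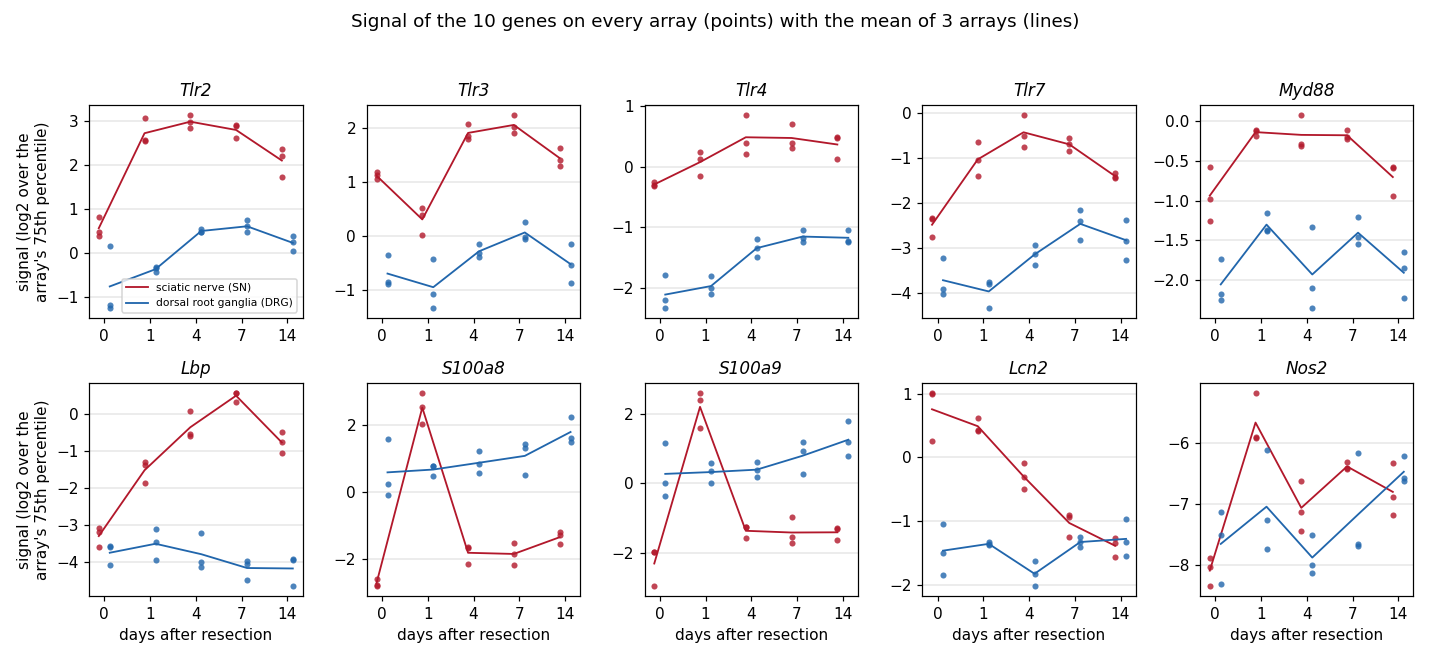
Signal of each gene (y axis, log2 over the array's 75th percentile, a scale of its own in each panel) against days after resection (x axis, not to scale), with SN in red and DRG in blue. Points are the 3 arrays of a group and lines join their means. S100a8 and S100a9 stood out in SN at 1 d, while Lbp climbed to 7 d and Lcn2 went down to 14 d in SN.

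Tlr2, the receptor for bacterial lipoproteins, was higher in SN at each day after injury. The 0 d arrays read 0.39, 0.47 and 0.83. Those of 1 d read 3.05, 2.53 and 2.56, those of 4 d 2.83, 2.96 and 3.14 and those of 7 d 2.89, 2.87 and 2.60, and by 14 d the signal was 2.35, 1.73 and 2.21. No array after injury overlapped those of 0 d, and the 14 d arrays lay below those of the other days after injury. The log2 changes were 2.15 ± 0.19 (SE), 2.41, 2.22 and 1.53 (adjusted p = 2.47e-06, 6.18e-07, 1.15e-06 and 3.07e-05), which is 4.44-, 5.32-, 4.67- and 2.89-fold.

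In DRG the Tlr2 arrays at 0 d read -1.17, -1.25 and 0.16, the last being replicate 3. At 4 d they read 0.55, 0.47 and 0.48 and at 7 d 0.61, 0.75 and 0.47, all above the 3 arrays of 0 d. The log2 changes were 1.25 ± 0.28 (SE, adjusted p = 0.0063) and 1.36 (adjusted p = 0.00445). At 1 d (log2 change 0.39, adjusted p = 0.363) and at 14 d (0.99, adjusted p = 0.0149, 1.98-fold) Tlr2 was not called. Replicate 3 of 0 d also had the highest summed macrophage marker signal of its group, 31.7 against 19.7 and 22.6 times the 75th percentile. Without it the 14 d change of Tlr2 was 1.44 (adjusted p = 9.02e-06), and without DRG 14 d replicate 2 it was 1.07 (adjusted p = 0.0242). When the fit used the compared arrays alone, the adjusted p of the 4 d and 7 d changes was 0.0658 and 0.0615.

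Tlr7, an endosomal sensor of single-stranded RNA, ran beside Tlr2 in SN. It went from -2.36, -2.75 and -2.33 at 0 d to -0.65, -1.39 and -1.05 at 1 d and to -0.74, -0.50 and -0.03 at 4 d. The 7 d arrays read -0.69, -0.56 and -0.84 and the 14 d arrays -1.32, -1.43 and -1.45. All 12 arrays after injury exceeded those of 0 d. The log2 changes were 1.45, 2.05, 1.78 and 1.08 with an SE of 0.20 (adjusted p = 7.16e-05, 3.82e-06, 1.19e-05 and 0.000731). The 14 d call was lost without SN 0 d replicate 2 (0.94), with quantile normalization (0.92), with normexp and quantile normalization (0.75) and under the authors' log2 values (0.91).

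In DRG Tlr7 read -4.02, -3.91 and -3.21 at 0 d and -2.81, -2.16 and -2.41 at 7 d, where the groups did not overlap. The log2 change at 7 d was 1.25 ± 0.27 (SE, 2.38-fold, adjusted p = 0.00641). At 14 d the change was 0.89 (1.85-fold, adjusted p = 0.0223), and at 1 d and 4 d it was -0.25 and 0.57 (adjusted p = 0.569 and 0.126). The 7 d call was lost with normexp background correction and quantile normalization (0.77), and the 14 d change passed 2-fold without DRG 0 d replicate 3 (1.14) or DRG 14 d replicate 1 (1.11).

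Tlr4, the receptor for lipopolysaccharide, changed by less than 2-fold in either tissue. In SN the arrays read -0.32, -0.25 and -0.31 before injury and 0.25, -0.15 and 0.13 after 1 d. They read 0.21, 0.39 and 0.86 after 4 d, then 0.31, 0.71 and 0.39 (7 d) and 0.49, 0.13 and 0.48 (14 d). Every array after injury lay above those of 0 d, though the changes were small (0.37, 0.78, 0.76 and 0.66, adjusted p = 0.0798, 0.00183, 0.00201 and 0.00607). In DRG the 0 d arrays read -2.33, -2.19 and -1.79 and the 7 d arrays -1.24, -1.04 and -1.17. The DRG changes were 0.14, 0.76, 0.95 and 0.93 (adjusted p = 0.521, 0.00209, 0.000471 and 0.000362), up to 1.94-fold. Without DRG 0 d replicate 3 they passed 2-fold at 7 d (1.11) and 14 d (1.09).

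Tlr3, which binds double-stranded RNA, had another time course in SN. The arrays read 1.05, 1.13 and 1.18 at 0 d and 0.40, 0.02 and 0.52 at 1 d, so that it lay below the 0 d arrays at that day. They then lay above the 0 d arrays, with 1.80, 1.86 and 2.07 on the 4 d arrays, 2.02, 2.25 and 1.90 on the 7 d arrays and 1.40, 1.30 and 1.63 on the 14 d arrays. None of these differences reached 2-fold (-0.81, 0.79, 0.94 and 0.33, adjusted p = 0.000332, 0.000372, 9.99e-05 and 0.0629), although at 7 d the change came to 1.01 under quantile normalization and under the authors' log2 values, and to 1.02 without SN 7 d replicate 3. From 1 d to 4 d Tlr3 rose by 1.60 ± 0.14 (SE, 3.03-fold, adjusted p = 1.05e-05). In DRG the lowest and highest group means of Tlr3 were -0.94 at 1 d and 0.07 at 7 d, and the largest change from 0 d was 0.76 (adjusted p = 0.0357).

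Myd88, the adaptor of Tlr2, Tlr4 and Tlr7, was higher by less than 2-fold. The SN arrays read -0.98, -1.25 and -0.57 at 0 d and -0.10, -0.12 and -0.18 at 1 d, with changes of 0.80, 0.77 and 0.76 at 1, 4 and 7 d (adjusted p = 0.000991, 0.00133 and 0.00139) and 0.23 at 14 d (adjusted p = 0.232). The arrays of 1, 4 and 7 d did not overlap those of 0 d, and those of 14 d did. In DRG the changes were 0.75, 0.13, 0.65 and 0.15, with an adjusted p of 0.0468 at 1 d and between 0.0671 and 0.714 at the other days.

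Lbp rose in SN at every day after injury. Its arrays read -3.20, -3.10 and -3.60 before injury, and -1.87, -1.31 and -1.39 after 1 d. The signal went on to -0.60, -0.54 and 0.07 by 4 d and 0.34, 0.58 and 0.57 by 7 d, and the 14 d arrays read -0.48, -1.07 and -0.76. The 7 d arrays were the highest and did not overlap any other day. The log2 changes were 1.78, 2.94, 3.80 and 2.53 with an SE of 0.22 (3.44-, 7.69-, 13.9- and 5.79-fold, adjusted p = 2.77e-05, 4.3e-07, 7.98e-08 and 2.2e-06). In DRG the arrays of all 5 days lay between -4.66 and -3.12 and their groups overlapped, with changes of 0.24, -0.04, -0.41 and -0.43 (adjusted p = 0.606, 0.929, 0.327 and 0.27).

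S100a8 and S100a9 rose in SN at 1 d more than any of the other genes. S100a8 read -2.59, -2.77 and -2.82 at 0 d and 2.56, 2.06 and 2.98 at 1 d, a log2 change of 5.26 ± 0.23 (SE, 38.3-fold, adjusted p = 2.83e-08). S100a9 read -1.99, -1.97 and -2.96 and then 2.41, 1.58 and 2.61, a change of 4.51 ± 0.31 (22.8-fold, adjusted p = 4.89e-07). The groups were far apart for both subunits.

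By 4 d most of this signal was gone. The S100a8 arrays of 4 d read -2.14, -1.66 and -1.65, those of 7 d -2.19, -1.84 and -1.52 and those of 14 d -1.30, -1.20 and -1.55, still above the 0 d arrays. Against 0 d its log2 changes were 0.91, 0.88 and 1.38 (adjusted p = 0.00453, 0.00563 and 0.000329), and it was called at 14 d (2.6-fold), though not with normexp and quantile normalization (0.96). S100a9 differed from 0 d by 0.94, 0.89 and 0.90 at 4, 7 and 14 d (adjusted p = 0.0192, 0.0244 and 0.0264), just under 2-fold, and it passed 2-fold at each of these days when SN 0 d replicate 1 or 2 was left out (1.05 to 1.11). The same happened without replicate 1 of 4 d (1.04), replicate 1 of 7 d (1.05) or replicate 3 of 14 d (1.01) in SN. Without SN 4 d replicate 1, S100a8 passed 2-fold at 4 d (1.07), and without SN 7 d replicate 1 it did so at 7 d (1.05).

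The 3 S100a8 probes were all called at 1 d and 14 d in SN. The probes A_44_P674704 and A_44_P674708, which the files place on the minus strand, were 30.4-fold and at least 10.6-fold higher at 1 d than at 0 d in SN (adjusted p = 6.39e-08 and 1.45e-06). The bound for the latter was used because none of the 0 d arrays was well above background. For A_44_P674704, 1 of the 0 d arrays was well above background. Both of these probes were also called at 7 d in SN (adjusted p = 0.000657 and 0.00916), where A_44_P1055780 was at 1.83-fold and not called. A_44_P674708 was called at 4 d as well (adjusted p = 0.0107), unlike the other probes. At 4, 7 and 14 d its signal did not exceed the bound set by background at 0 d, so a change over 2-fold was not measured there. Whether A_44_P674704 and A_44_P674708 read S100a8 RNA or a transcript of the opposite strand was not tested.

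**Figure D2:**
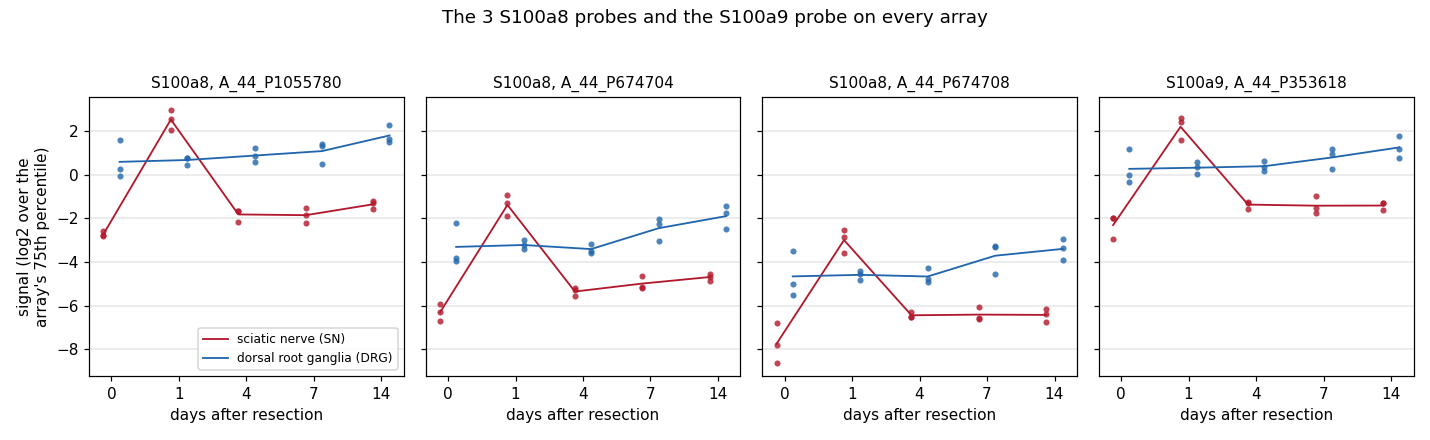
Signal of the 3 S100a8 probes and of the S100a9 probe (y axis, log2 over the array's 75th percentile) on every array against days after resection (x axis, not to scale). SN is red and DRG is blue, points are arrays and lines join the means of 3. All 4 probes had their highest mean in SN at 1 d and lay higher in DRG than in SN at the other days.

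In DRG S100a8 and S100a9 were higher than in SN before injury and neither was called up to 7 d. S100a8 read 1.60, 0.25 and -0.07 at 0 d, and S100a9 read 1.17, 0.00 and -0.35, with replicate 1 above the other arrays for both. After 1 d S100a8 read 0.78, 0.47 and 0.79 and after 4 d 0.58, 0.84 and 1.22. The 7 d arrays read 0.51, 1.43 and 1.33 and the 14 d arrays 1.51, 1.64 and 2.26. The 14 d arrays overlapped those of 0 d through replicate 1, and the log2 change was 1.21 ± 0.39 (SE, 2.31-fold, adjusted p = 0.0267). Without DRG 0 d replicate 1 it was 1.71 (adjusted p = 0.00164), whereas without DRG 0 d replicate 2, DRG 0 d replicate 3 or DRG 14 d replicate 3 the call was lost (1.04, 0.88 and 0.98, adjusted p = 0.0902, 0.105 and 0.102). S100a9 changed by 0.98 at 14 d (1.98-fold, adjusted p = 0.0537), by 1.43 (adjusted p = 0.00548) without DRG 0 d replicate 1 and by 1.22 (adjusted p = 0.0388) without DRG 14 d replicate 1.

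Neutrophil markers as a sum were highest in SN at 1 d, as were S100a8 and S100a9, though single markers took other courses after that day. The list held 18 genes of neutrophil granules and surface, of which 17 were on the array, and their summed linear signal is given in multiples of the 75th percentile. In SN it was 1.15 to 1.34 at 0 d, 3.69 to 5.55 at 1 d and 1.55 to 1.85 at 4 to 14 d. At 0 d in SN, no array had Elane, Ngp, Ltf, Mmp8, Fpr1 or Cd177 well above background, and at 1 d this held for Ngp and Fpr1. In DRG the sum was 3.66 on replicate 1 of 0 d, the array with the highest S100a8, and 1.59 and 1.29 on the others, and it was 2.75 to 3.86 at 14 d. A linear sum leans on its brightest genes. In SN at 1 d the highest mean of the list was that of Il1r2 (1.06 on the log2 scale). In DRG it was that of Camp at 0 d (-0.52) and 14 d (0.10). The part of neutrophils in the S100a8 and S100a9 signal was not tested.

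Within that list 11 of the 15 markers tested in SN were higher at 1 d and none lower, with a median log2 change of 3.06. Csf3r, the receptor for granulocyte colony-stimulating factor, rose by 4.17 and Il1r2, a decoy receptor for interleukin-1, by 3.06 (adjusted p = 1.08e-08 and 4.01e-08). At 4 d 8 were higher and 2 lower, Csf3r staying higher by 3.48 (adjusted p = 2.07e-08), while Padi4, an enzyme of neutrophil chromatin release, fell by 2.14 (adjusted p = 3.82e-05) and Mpo, the granule peroxidase, fell by 1.01 (adjusted p = 0.0185). At 7 d 7 were higher and 1 lower and at 14 d 7 were higher. Of all probes tested in SN, 18.6%, 15.9%, 18.1% and 14.3% were called higher from 1 d to 14 d. Called lower were 3.43%, 6.78%, 6.81% and 5.46%. In DRG 1, 2, 3 and 5 of the 16 markers tested were higher at 1, 4, 7 and 14 d and none was lower. Of all probes tested in DRG, 7.43%, 6.04%, 6.58% and 13% were called higher. Il1r2 was higher in DRG by 3.28 at 7 d (adjusted p = 1.57e-07).

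**Figure D3:**
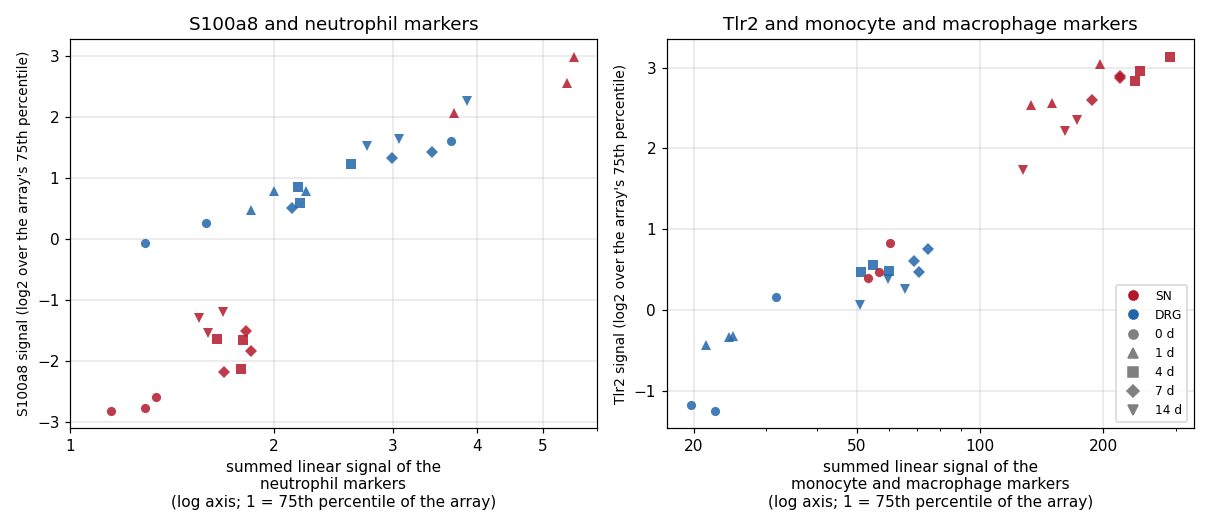
Left, S100a8 signal (y axis, log2 over the array's 75th percentile) against the summed linear signal of the neutrophil markers (x axis, log scale, 1 is the 75th percentile) on each of the 30 arrays. Right, Tlr2 against the summed monocyte and macrophage markers, with SN in red, DRG in blue and a symbol for each day. The SN 1 d arrays lay at 3.69 to 5.55 on the x axis of the left panel, and DRG 0 d replicate 1 lay at 3.66.

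Macrophage markers were higher in SN on the days on which Tlr2 and Tlr7 were. Tlr4 also had its lowest SN mean at 0 d and its highest at 4 d, though its changes stayed under 2-fold. Tlr3 had another course, lying below its 0 d arrays at 1 d. Of 12 monocyte and macrophage markers on the array, 10, 12, 10 and 8 were higher in SN at 1, 4, 7 and 14 d and none was lower, with median log2 changes of 1.59, 1.90, 1.73 and 1.22. Of all probes tested in SN, 18.6%, 15.9%, 18.1% and 14.3% were called higher. The summed signal of the 12 markers in SN was 53.4 to 60.2 at 0 d, 239 to 290 at 4 d, where the Tlr2 mean was highest, and 127 to 172 at 14 d. In DRG it was 19.7 to 31.7 at 0 d and 69.1 to 74.8 at 7 d, the day of the highest Tlr2 and Tlr7 means, and 0, 5, 8 and 7 of the 12 were called higher. Of all probes tested in DRG, 7.43%, 6.04%, 6.58% and 13% were called higher. At 1 d in DRG, where the marker count was 0, no marker was lower either. Cd68, a lysosomal protein of macrophages, rose by 2.95 in SN at 4 d (adjusted p = 1.14e-07) and by 1.42 in DRG at 7 d (adjusted p = 4.08e-05). None of these markers was below background on all arrays of a group. The part of these cells in the Tlr2 and Tlr7 signal was not tested.

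Other cell types also varied. Blood markers summed to 8.38 to 23.1 in SN at 0 d and 26.1 to 45.6 at 1 d, and 3 of 6 were called higher at 1 d. Skeletal muscle markers summed to 98.4 to 1330 in SN at 0 d and to 6.5 to 23 at 4 d, and all 6 were called lower at 4 d and 7 d. Adipocyte markers, of which 4 were tested, had 0, 3, 2 and 3 called lower in SN at the successive days after injury. Of 11 Schwann cell and myelin markers, 3, 6, 6 and 4 were lower and 2, 2, 2 and 1 higher in SN at 1, 4, 7 and 14 d. Among 6 endothelium markers 1 was lower at each of these days. Of all probes tested in SN, 18.6%, 15.9%, 18.1% and 14.3% were called higher at these days. Called lower were 3.43%, 6.78%, 6.81% and 5.46%. The Schwann cell and myelin counts called higher were thus near or below the share of all probes. The part of these cell types in the changes of the 10 genes was not tested.

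Lcn2 was the gene that fell in SN. Its arrays read 1.00, 1.02 and 0.26 before injury and 0.43, 0.63 and 0.42 after 1 d. The 4 d arrays were at -0.09, -0.31 and -0.49, the 7 d arrays at -0.90, -0.94 and -1.26 and the 14 d arrays at -1.34, -1.26 and -1.57. From 4 d onward no array overlapped an earlier day. The log2 changes were -0.27, -1.06, -1.79 and -2.15 with an SE of 0.19 (adjusted p = 0.243, 0.000443, 7.24e-06 and 2.73e-06), which at 14 d is 4.43-fold lower. The 4 d call was just over 2-fold and was lost without SN 0 d replicate 1, SN 0 d replicate 2 or SN 4 d replicate 3 (-0.94, -0.93 and -0.96). In DRG Lcn2 lay between -2.03 and -0.96 on all 15 arrays, with changes of 0.11, -0.36, 0.14 and 0.19 (adjusted p = 0.739, 0.157, 0.635 and 0.467).

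Nos2 was dim. In SN none of the 0 d arrays was well above background (-7.89, -8.04 and -8.35), against all 3 of the 1 d arrays (-5.18, -5.93 and -5.90) and all 3 of the 7 d arrays (-6.42, -6.31 and -6.44). Of the 4 d arrays 2 were (-7.13, -6.63 and -7.44), and of the 14 d arrays 1 was (-7.18, -6.89 and -6.34). Nos2 was at least 1.66-fold higher at 1 d and at least 1.01-fold higher at 7 d, measured against the lowest signal well above background (adjusted p = 1.15e-05 and 0.000131), so that a change over 2-fold was not measured at any day. At 4 d and 14 d it passed the test (adjusted p = 0.00467 and 0.00126), but its signal did not exceed that bound, and no fold is given. Under the authors' log2 values Nos2 was not called at 4, 7 or 14 d, and with normexp and quantile normalization it was under 2-fold at all 4 days (0.29 at 1 d). The 4 d call was also lost without SN 0 d replicate 3 or SN 4 d replicate 2. In DRG 0, 1, 0, 1 and 3 arrays were well above background at 0, 1, 4, 7 and 14 d, and the 14 d arrays (-6.23, -6.62 and -6.58) lay above those of 0 d without passing the test (adjusted p = 0.0623). In a fit of the compared arrays alone, Nos2 passed at 14 d (adjusted p = 0.0351) and S100a8 did not (adjusted p = 0.0991), and the methods' t-test without adjustment gave the same exchange.

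**Figure D4:**
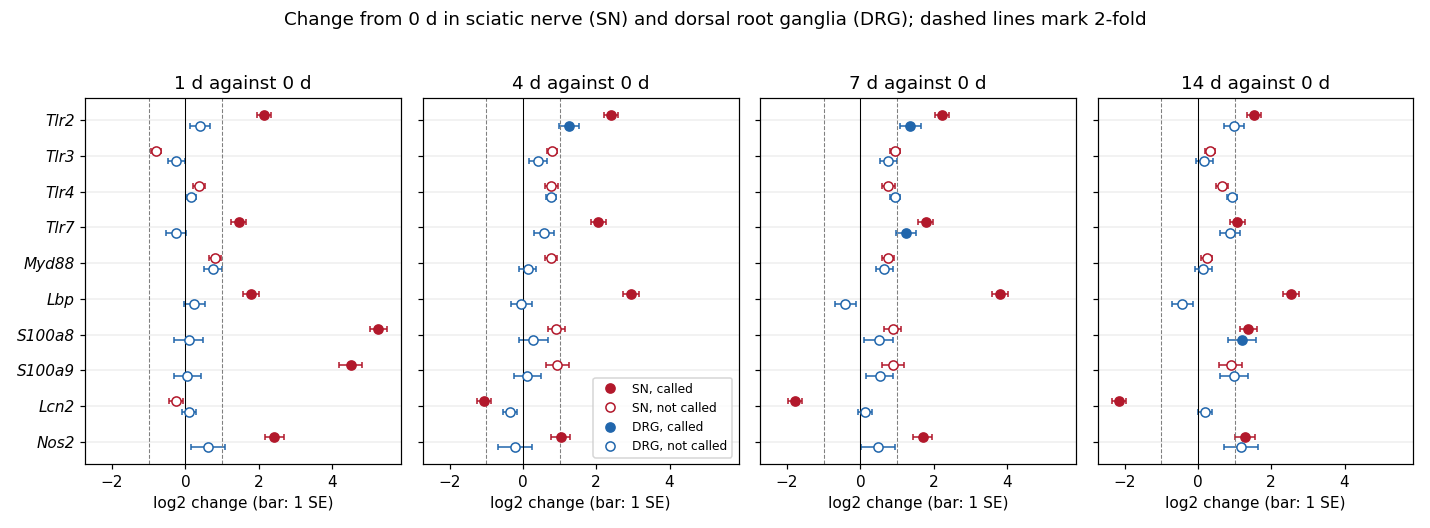
Log2 change from 0 d (x axis, bars are 1 SE) of each gene (rows) at 1, 4, 7 and 14 d, with SN in red and DRG in blue. Filled points were called and dashed lines mark 2-fold. The SN points of S100a8 and S100a9 lay at 5.26 and 4.51 at 1 d, and Lcn2 moved to -2.15 by 14 d. The Nos2 values at 0 d were not well above background.

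Within a tissue, successive days shared no slide, so the steps between them cannot be told apart from slide. The SN arrays of 7 d and 14 d also differed in scan day. Between successive days, SN changed mainly from 1 d to 4 d, where 5 of the 10 genes were called beside 8.53% of all probes. Lbp rose by 1.16 (adjusted p = 0.00168, under 2-fold at 0.99 without SN 1 d replicate 1 and at 0.95 without SN 4 d replicate 3) and Tlr3 by 1.60, while S100a8 fell by 4.35 and S100a9 fell by 3.57 (20.4- and 11.8-fold, adjusted p = 5.54e-07 and 1.04e-05) and Nos2 fell by 1.39 (adjusted p = 0.00169). The Nos2 call was lost under the authors' log2 values, just short of 2-fold, and with normexp and quantile normalization (-0.23), and 1 of its 4 d arrays was not well above background. From 4 d to 7 d none was called in SN, beside 2.6%, with 3 genes at an unadjusted limma p under 0.05 and none called by the t-test of the methods. Lbp and Lcn2 differed by 0.85 and -0.73 (adjusted p = 0.0199 and 0.0217), and without SN 4 d replicate 3 Lbp passed 2-fold (1.07). From 7 d to 14 d Lbp was called, 1 of 10 beside 1.65%, and fell by 1.27 (adjusted p = 0.00499). In DRG none was called from 1 d to 4 d, 4 d to 7 d or 7 d to 14 d, beside 4.27%, 0.177% and 0.0972%. There 6, 3 and 1 of the genes had an unadjusted limma p under 0.05, and the t-test of the methods called none.

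Before injury the tissues differed in 8 of the 10 genes, beside 35.4% of all probes. Lcn2, Tlr3, Tlr4, Tlr2, Tlr7 and Myd88 were higher in SN, by 2.23, 1.81, 1.81, 1.32, 1.23 and 1.12 on the log2 scale (4.68-, 3.5-, 3.51-, 2.49-, 2.35- and 2.17-fold, adjusted p from 4.62e-10 to 0.000118). S100a8 and S100a9 were lower in SN, with log2 differences of -3.32 ± 0.33 and -2.58 ± 0.36 (SE, 9.98- and 5.98-fold, adjusted p = 4.61e-09 and 8.06e-07). Lbp was not called (0.45, adjusted p = 0.137), and Nos2 did not reach the background criterion on the 0 d arrays of either tissue. Myd88 fell short of 2-fold without SN 0 d replicate 3 (0.94), and with normexp and quantile normalization both Myd88 and Tlr7 did (0.93 and 0.89). On the slide that held all 3 SN arrays and DRG replicate 1 of 0 d, the differences were -4.32 for S100a8, -3.47 for S100a9, 1.81 for Lcn2 and 1.74 for Tlr2. Macrophage markers were higher in SN as well, 10 of 12, and of 15 neutrophil markers 3 were higher and 6 lower in SN. Of all probes, 20% were called higher and 15.5% lower in SN, so the neutrophil count called higher was near that share. Of 17 neutrophil markers on the array, 6 were well above background on all 3 arrays of 0 d in SN, and 6 in DRG.

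The change in SN was then set against that in DRG, as the difference of the log2 changes from 0 d, with a gene called at an adjusted p under 0.05. At 1 d 6 of the 10 genes were called beside 35.6% of all probes, and all 6 moved further up in SN. S100a8 and S100a9 differed by 5.17 ± 0.47 and 4.46 ± 0.50 (SE, adjusted p = 3.89e-08 and 7.53e-07). Nos2, Tlr2, Tlr7 and Lbp differed by 1.81, 1.76, 1.70 and 1.54 (adjusted p = 0.0138, 0.000435, 0.000686 and 0.00293), the Nos2 value resting on 0 d arrays that were not well above background. With the slide as a block, which leaves the comparison to the slides that held both tissues, Nos2 and Tlr2 no longer passed (0.23 and 1.41, adjusted p = 0.765 and 0.0691). Nos2 was also lost without DRG 1 d replicate 2 (1.46, adjusted p = 0.051), and Tlr3 gained a call there (-0.75, adjusted p = 0.0451).

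At 4 d 4 genes were called beside 45.3% of all probes, a share below the background. Lbp (2.98, adjusted p = 1.4e-06), Tlr7 (1.48, adjusted p = 0.00154) and Tlr2 (1.16, adjusted p = 0.00924) moved further up in SN, and Lcn2 moved down (-0.69, adjusted p = 0.044). With the slide as a block Tlr2 and Lcn2 did not pass (0.90 and -0.47, adjusted p = 0.196 and 0.367), while S100a8 and S100a9 did (1.80 and 1.82, adjusted p = 0.00915 and 0.034). On those terms 0 d in DRG rested on replicate 1, the array with the high S100a8. Among the 12 fits that left out 1 array, the Lcn2 call held without DRG 0 d replicate 1, DRG 4 d replicate 2, SN 0 d replicate 3 or SN 4 d replicate 1, and was lost in the rest (adjusted p up to 0.146). It was also lost with no filter, with the percentile over bright probes, with quantile normalization, under the authors' log2 values and with the compared arrays alone (adjusted p = 0.053, 0.0692, 0.0898, 0.0914 and 0.144). Myd88 was called without DRG 4 d replicate 1 or SN 0 d replicate 3 (0.94 and 0.82, adjusted p = 0.0046 and 0.0316), and Nos2 without DRG 0 d replicate 1 (1.58, adjusted p = 0.0261).

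At 7 d 2 genes were called beside 38.1% and at 14 d 2 beside 32.2%, shares below those of all probes. These were Lbp (4.21 and 2.96, adjusted p = 1.09e-08 and 2.38e-06) and Lcn2 (-1.93 and -2.33, adjusted p = 7.63e-06 and 8.42e-07) at both days. Tlr2 differed by 0.86 at 7 d (adjusted p = 0.0537) and Tlr4 by -0.19 (adjusted p = 0.532). With the slide as a block 4 genes were called at 7 d, S100a8 and S100a9 being added (1.97 and 1.79, adjusted p = 0.00604 and 0.0427). Tlr2 was called at 7 d without DRG 0 d replicate 1, DRG 0 d replicate 2 or SN 0 d replicate 3 (1.07, 1.11 and 1.00, adjusted p = 0.0186, 0.0143 and 0.0381), and also under the other normalizations, the authors' log2 values and the stricter filter (adjusted p = 0.0308 to 0.0485). Nos2 was called without DRG 0 d replicate 1 or DRG 7 d replicate 1 (1.55 and 1.72, adjusted p = 0.0331 and 0.0107).

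Other genes of the pathway were counted from lists of receptors, adaptors, ligands and effectors. Of 4 other Toll-like receptors on the array, 3 were higher in SN at 1, 4 and 7 d and 2 at 14 d, with none lower. Their median changes were 1.54, 1.49, 1.40 and 1.17. Beside these counts, 18.6%, 15.9%, 18.1% and 14.3% of all probes were called higher. Tlr10 counted at each day, but none of its 0 d arrays in SN was well above background (mean -7.84), so counts and medians lean in part on a dim value. Tlr9 counted at 1 d alone, and its SN mean was lower at 7 d (-3.87) than at 0 d (-3.25). Tlr5, the flagellin receptor, was higher by 1.72 at 1 d and by 1.73 at 4 d (adjusted p = 1.86e-06 and 1.04e-06). Tlr9, a sensor of bacterial DNA, was higher by 2.01 at 1 d (adjusted p = 0.00175), and Tlr6, the partner of Tlr2, by 1.32 at 7 d (adjusted p = 7.87e-06). In DRG 1 of 3 tested was called at 1 d, Tlr9 (1.64, adjusted p = 0.044), and 0 later.

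Among 15 co-receptors and adaptors, 4, 7, 6 and 3 were higher in SN at 1, 4, 7 and 14 d, and 0, 0, 1 and 1 lower, with median changes of 0.75, 0.82, 0.38 and 0.295. At 1 d and 14 d the share called higher was near that of all probes. Cd14, which passes lipopolysaccharide to Tlr4, rose by 2.01 at 1 d and Unc93b1, the chaperone of the endosomal receptors, by 2.26 at 4 d (adjusted p = 1.91e-06 and 3.38e-06). Ly86 (MD-1) rose by 2.52 in SN and 1.62 in DRG at 7 d (adjusted p = 1.89e-06 and 0.00028). In DRG 0, 1, 3 and 2 of 14 were higher and none lower, beside 7.43%, 6.04%, 6.58% and 13% of all probes called higher. Of 17 genes of the NF-kB and IRF arm, 3, 4, 5 and 3 were higher in SN, near the share of all probes at 1, 4 and 14 d, and 1 was lower at 1 d, with median changes of 0.21 to 0.30, and 0, 0, 2 and 1 were higher in DRG. Ikbke, a kinase of the interferon arm, rose by 2.07 at 7 d and Irf5 by 1.97 at 4 d (adjusted p = 6.97e-07 and 1.48e-06).

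A list of endogenous ligands other than calprotectin also held the receptor Ager. Of its genes 13 were tested in SN, and 5, 2, 1 and 2 were higher at 1, 4, 7 and 14 d with none lower (medians of 0.79, 0.31, 0.24 and 0.11). Of all probes 18.6%, 15.9%, 18.1% and 14.3% were called higher, so the counts of 4, 7 and 14 d were near or below that share. In DRG 0, 0, 0 and 1 of 12 were higher, below the 7.43%, 6.04%, 6.58% and 13% of all probes. The gene called in DRG at 14 d was the receptor Ager (1.07, adjusted p = 0.00774) and not a ligand. Tnc, the matrix protein tenascin-C, rose by 4.81 at 4 d (adjusted p = 5.39e-08). The other S100 genes did not share the course of S100a8 in these counts. Of 11 tested in SN, 1 was higher at 1 d, and 0 were higher and 2, 2 and 3 lower at 4, 7 and 14 d (medians of -0.23, -0.13, -0.44 and -0.35 from 1 d on). Of all probes, 18.6% were called higher at 1 d, and 6.78%, 6.81% and 5.46% lower at the later days. In DRG 1, 0, 0 and 1 of 11 were higher and none lower, near or below the 7.43%, 6.04%, 6.58% and 13% of all probes called higher. S100a3 fell by 3.19 at 7 d (adjusted p = 9.73e-09), and S100b, the glial member, was 2.14-fold lower at 14 d (adjusted p = 0.00452).

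Beside Lbp and Lcn2, 12 acute-phase genes were tested in SN, and 8, 7, 7 and 6 were higher at 1, 4, 7 and 14 d with none lower (medians from 1.17 to 1.21 up to 7 d). Slpi, an inhibitor of neutrophil elastase, rose by 4.96 at 1 d (adjusted p = 9.73e-07) and complement C3 by 2.49 at 7 d (adjusted p = 4.97e-07). In DRG 2, 3, 4 and 4 of 12 were higher, and Serpina3n, a serine protease inhibitor of the acute phase, rose by 5.03 at 4 d (adjusted p = 6.18e-08). Of all probes tested, 18.6%, 15.9%, 18.1% and 14.3% were called higher in SN and 7.43%, 6.04%, 6.58% and 13% in DRG. Beside Nos2, 9 genes of nitric oxide and arginine metabolism were tested in SN, and 3, 2, 2 and 0 were higher and 0, 1, 1 and 2 lower (medians of 0.30, 0.21, 0.20 and 0.04). At 4 d and 7 d the share called higher was near that of all probes (15.9% and 18.1%), and at 14 d it was below it (14.3%). In DRG 1, 2, 3 and 3 of 10 were higher and none lower, the 1 d count being near the share of all probes (7.43%). Arg1, which competes with Nos2 for arginine, rose by 3.03 in SN at 1 d (adjusted p = 1.27e-06), as did Gch1, which makes the Nos2 cofactor, by 1.33 (adjusted p = 0.000183). In DRG Arg1 rose by 4.53 at 4 d (adjusted p = 8.37e-09).

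The genes whose signal followed the members most closely over the 15 SN arrays were named from 15217 probes by Pearson's r, given as a description since all genes shared the same arrays. S100a8 was most like Il1r2 (r = 0.989) and S100a9 (0.987), and S100a9 like S100a8 and Il1r2 (0.971). Tlr2 was most like Nfam1 and C3ar1 (0.989 and 0.985), Tlr7 like Btk and Ctsz (0.982 and 0.980), and Tlr4 like Il13ra1 and Pycard (0.971 and 0.934). Lbp was most like Basp1 and Plekho1 (both 0.987), Lcn2 like Chn1 and Dgat2 (0.963 and 0.961) and Tlr3 like Golgb1 and Rab31 (0.965 and 0.964). Myd88 was most like Pip5k3 and Zfp367 (0.955 and 0.948), and the dim Nos2 like Gpr45 and Or2y16 (0.973 and 0.970). Among the members themselves r was 0.958 for Tlr2 with Tlr7 in SN, and 0.975 for S100a8 with S100a9 and 0.897 for Tlr4 with Tlr7 in DRG.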

How the data were processed

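RNA of 15 SN and 15 DRG samples was hybridized to single-colour Agilent rat arrays, and the authors deposited the Feature Extraction 10.5.1.1 output, with processed intensity values after background subtraction, and a table of log2 values whose sorted values differed by at most 0.00301 between arrays. The labels name a mirVana kit and the study's methods Trizol for extraction. From the scanner files, outlier spots were left out, spots of a probe were averaged as log2 and the 75th percentile of each array over its 41012 non-control probes was subtracted. Missing values were left out of a probe's fit. A probe was tested when well above background (at least 50% of its spots) on all 3 arrays of 1 or more days of the tissue, which left 35163 probes in SN and 34977 in DRG. No spot was saturated.

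Groups were taken from the labels and compared with limma 3.58.1 in R 4.3.3 (lmFit and eBayes, 15 arrays of a tissue for days, 30 arrays for tissues), in 19 comparisons with Benjamini-Hochberg adjustment over all probes tested. The number of arrays, 3 per group, limits the precision. The array's gene names were used, and 13088 of 17504 RefSeq accessions matched a GRCr8 gene table. The brightest S100a8 probe stood for the gene. From each list the text names at most 4 genes for SN and 2 for DRG, those with the largest change among called probes above background in both groups. The 10 genes and the lists were chosen with earlier results of these data known. Summed marker signals add the linear signals of all listed genes on the array. Alternatives were other normalizations, the authors' log2 values, other filters, blocks for slide, scan day and replicate number, the methods' t-test and leaving out each array. The slide as a fixed block and the unadjusted t-test were added after seeing the data. Lcn2 and Tlr2 promoters and the motif search used RefSeq windows. The scripts were tested on simulated data.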

Additional observations from a re-analysis of the deposited data

Results flagged for a closer look

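The difference between the change in SN and the change in DRG passed the test for 14 pairs of gene and day, each a difference of log2 changes from 0 d. At 1 d these were S100a8 (5.17), S100a9 (4.46), Nos2 (1.81), Tlr2 (1.76), Tlr7 (1.70) and Lbp (1.54). At 4 d they were Lbp (2.98), Tlr7 (1.48), Tlr2 (1.16) and Lcn2 (-0.69). At 7 d they were Lbp (4.21) and Lcn2 (-1.93), and at 14 d Lbp (2.96) and Lcn2 (-2.33). The Nos2 value rests on 0 d arrays that were not well above background in either tissue.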

How the results depend on the processing

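Counts of the 10 genes called are given for the settings that moved them by over 1.5 times. With no fold threshold they were 10 in SN at 4 d and 10 at 7 d, 1, 2, 4 and 4 in DRG at 1, 4, 7 and 14 d, 2 for the step from 4 d to 7 d in SN, 4 for that from 7 d to 14 d, and 2 for that from 1 d to 4 d in DRG. With normexp and quantile normalization they were 3 in SN at 14 d, 1 in DRG at 7 d, 3 in SN for 4 d against 1 d, and 0 for 14 d against 7 d. The methods' t-test after adjustment gave 0 in DRG at 4, 7 and 14 d and 0 in SN from 7 d to 14 d, and without adjustment 0 in DRG at 4 d. A fit of the compared arrays alone gave 0 in DRG at 4 d and 1 at 7 d, and its 14 d call there was Nos2 in place of S100a8. With the slide as a fixed block the tissues' changes differed in 4 genes at 7 d. Leaving out 1 array at a time, the count in DRG at 14 d ranged from 0 (without DRG 0 d replicate 2 or DRG 14 d replicate 3) to 3 (without DRG 0 d replicate 3 or DRG 14 d replicate 1), that in SN from 4 d to 7 d from 0 to 1 (without SN 4 d replicate 3), and that of the tissues' changes at 7 d from 2 to 4 (without DRG 0 d replicate 1). No called change reversed its direction under any alternative run, and the cause of these shifts was not tested. Samples with the same replicate number did not deviate together (r from -0.194 to 0.253 between tissues of a day). With the replicate block 188 of 190 values kept their call, and 2 passed in addition: Tlr3 at 1 d (-0.56, adjusted p = 0.0255) and Tlr2 at 7 d (0.86, adjusted p = 0.017), both for the difference between the tissues' changes, which brought those counts to 7 and 3. Treating slides as a random block left 188 calls as they were, the exceptions being Nos2 in SN at 4 d (0.99) and Lcn2 for the tissues' changes at 4 d (-0.64). Signal over background limits Nos2 and the probe A_44_P674708, which were dim in SN at 0 d.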
